A study of Drosophila melanogaster with 12 samples.

Results

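The Jonah proteases and trypsins are the serine proteases that the fly midgut secretes to digest dietary protein. Their genes were taken as every gene symbol that starts with Jon and a digit, every Greek-letter trypsin, and Ser6, Ser8, Ser12, yip7 and Try29F, which gave 32 of the 17714 genes in the female expression table. Of these, 16 are Jonah genes, 12 are trypsins and 4 are the related proteases Ser6, Ser8, Ser12 and yip7. The measurements came from 12 poly(A) RNA libraries of whole female Drosophila melanogaster, with 3 libraries in each of 4 groups and about 15 flies pooled per library. The groups were Ptth mutants (genotype ptth120BC2) at 5 weeks (old), Ptth mutants at 1 week (young), wild type (genotype wOB) at 5 weeks and wild type at 1 week. Ptth encodes prothoracicotropic hormone, the brain peptide that times metamorphosis, and the study asked how its loss changes the adult during ageing. A single mutant allele was sequenced, and no tissue was dissected. In bulk RNA of whole flies, fewer cells of a type and less RNA per cell cannot be told apart.

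Most Jonah genes and trypsins are expressed in enterocytes, the absorptive and secretory cells of the midgut. The enzymes leave the cell as inactive zymogens and are cut to the active form in the gut lumen. Trypsins cut after lysine and arginine, and chymotrypsin-like enzymes, to which the Jonah family belongs, cut after large hydrophobic residues. The genes are small and stand in tandem clusters. Enzyme transcripts in the fly gut are known to respond to diet, and GATA factors and activin signalling are among their known regulators.

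In the annotation of the Release 6 assembly, 26 of the 32 genes stood in 6 clusters and 26 had their coding sequence in 1 exon, with 5 in 2 exons and 1, Jon74E, in 3. The coding sequence was 735 to 840 bp long. The 11 Greek-letter trypsins filled a stretch of chromosome arm 2R from 11336840 to 11357537. On 3L, yip7 and the 4 Jon65A genes lay between 6035216 and 6054443, and Jon66Ci and Jon66Cii between 8391540 and 8393649. The 3 Jon25B genes occupied 4949941 to 4955144 of 2L. On 3R, the 3 Jon99C genes lay between 29922216 and 29926189 and the pair Jon99Fi and Jon99Fii between 30487016 and 30489895. Jon44E, Jon74E, Ser6, Ser8, Ser12 and Try29F stood alone. Of these, Jon74E lay at 17548077 to 17549127 of 3L, Ser12 at 2250431 to 2251275 of 2L and Ser8 at 13434207 to 13435045 of 2R. Jon44E, Ser8, Try29F and deltaTry each overlapped another annotated gene, so their reads may be shared with it, and clustered copies of similar sequence can exchange short reads.

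Library depth ran from 16448805 to 28206866 gene reads. Values are normalised counts, which are reads divided by the deposited size factor of each library. Of the 12 libraries, 3 stood apart: wild type young replicates 1 and 2 and Ptth mutant young replicate 1 carried transcripts of the male reproductive tract, which a female should lack. A list of 26 accessory gland and sperm genes summed to 9908 in that mutant library and to 7512 and 23219 in those wild type libraries, against at most 75.9 in each of the other 9. Both genotype groups at the young age therefore mix libraries with and without male RNA. Protease counts that use a young library are given with and without these 3, an alternative chosen after these libraries were seen. Ptth itself averaged lower in mutants at both ages, with 43.6 to 58.6 in old mutants against 75.3 to 76.8 in old wild type and 18.5 to 28.3 in young mutants against 25.5 to 39.9 in young wild type. Neither difference was called, and the study describes a small deletion, which the transcript level cannot check. Midgut markers such as mex1 (408 to 482 in old mutants, 552 to 832 in old wild type) and Npc1b (447 to 498 in old mutants, 878 to 1668 in old wild type) were detected in every library.

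The protease genes took close to 1% of all gene reads. Their share was 1.35, 1.2 and 1.1% in old mutants, against 0.877, 0.693 and 0.810% in old wild type, so every old mutant library lay above every old wild type library. The share was 1.27, 0.972 and 0.978% in young mutants, against 1.11, 1.43 and 0.769% in young wild type, and these groups overlapped. In young wild type, the 2 libraries with male transcripts had the higher shares and the library without them the lowest. Jonah genes made up the larger part in all 4 groups, with 0.641 to 0.789% of reads in old mutants, 0.381 to 0.498% in old wild type, 0.562 to 0.771% in young mutants and 0.417 to 0.845% in young wild type.

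**Figure D1:**
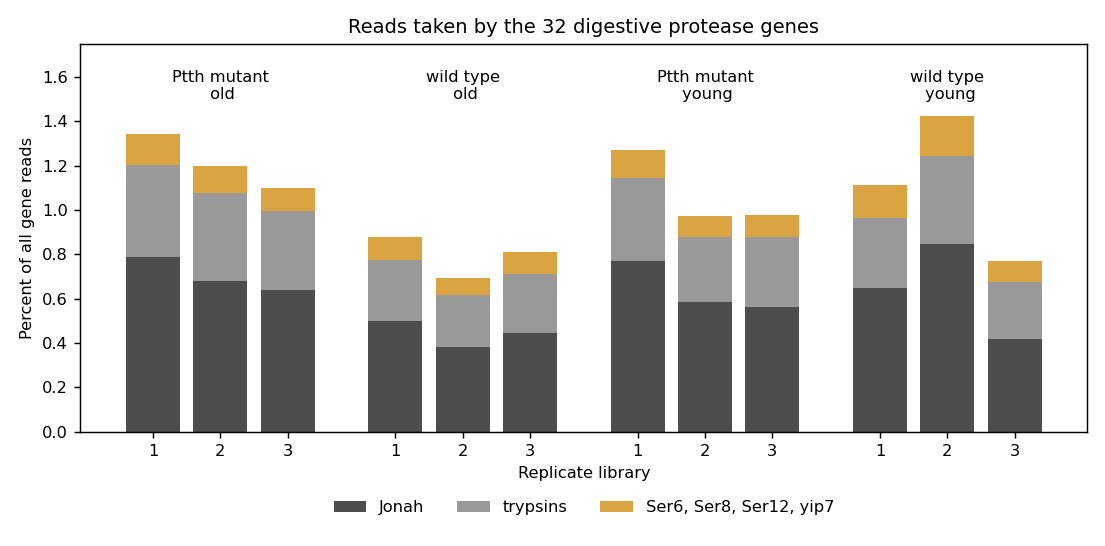
Percent of all gene reads taken by the 32 protease genes in each of the 12 libraries, stacked by class. The 3 old mutant libraries reach 1.1 to 1.35%, above the 0.693 to 0.877% of old wild type, while the young groups overlap.

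A few genes supplied most of this RNA. Over all libraries, the most abundant per length of transcript was Jon65Aiv, with a mean of 48415 normalised counts per kb. Jon65Aiii (37982), alphaTry (35934), betaTry (28465) and yip7 (27683) followed on the same scale. Try29F was the lowest of the genes tested, at 31.5 per kb, which is 1537-fold below Jon65Aiv. These 5 leading genes took 67.7 to 69.7% of all protease reads in old mutants and 74.6 to 78.5% in old wild type. They took 64.2 to 65% in young mutants and 72.3 to 75.3% in young wild type. Mutant and wild type libraries did not overlap at either age, and the other genes held a larger part of the protease RNA in mutants.

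**Figure D2:**
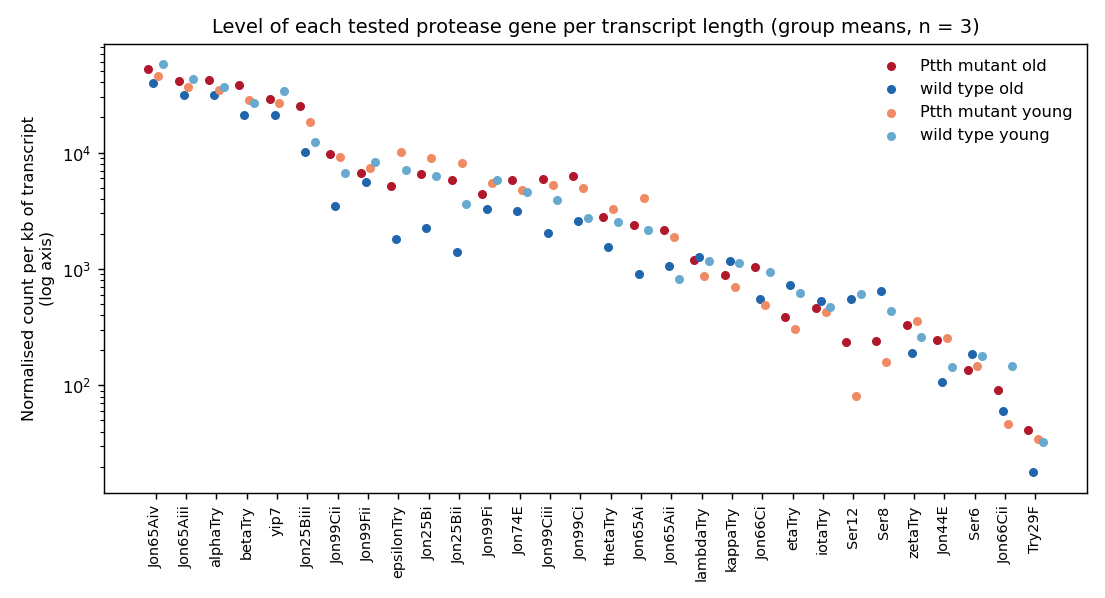
Group means (n = 3) of the 30 tested protease genes, in normalised counts per kb of transcript on a log axis, ordered by the mean over all libraries. The genes span 31.5 to 48415 per kb, and the old wild type mean of Jon25Bii (1397) lies well under its other group means (3621 to 8169).

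Trypsin genes gammaTry and deltaTry could not be tested. The first had 0 counted reads in all 12 libraries, which allows up to 3 countable reads per library (2.39 to 3.97 normalised counts). The second had 62 reads in total and was under 10 normalised counts in 11 of 12 libraries. They are close copies of one another, and reads that fit both may not have been counted. In that case the limit of 3 reads does not bound the expression of gammaTry. The other 30 genes passed the filter on low values and were tested across genotype and age, with a gene called at an adjusted p under 0.05 (limma, adjusted over all 11403 genes tested) and a change of more than 1.5-fold for genotype or 2-fold for age.

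At the old age, 13 protease genes were higher and 3 were lower in Ptth mutants than in wild type, so 16 of 30 were called, against 4.17% of all genes tested. By direction, 1.46% of all genes were higher and 2.71% were lower. The median log2 change over the 30 genes was 0.83, beside 0.0029 over all genes. Mutant and wild type libraries did not overlap for 23 of the 30, beside 26.4% of all genes. Of the 16 Jonah genes, 9 were higher and none was lower, of the 10 tested trypsins 4 were higher and 1 was lower, and of the other 4 proteases 2 were lower.

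The 3 Jon25B genes, a tandem set of chymotrypsin-like proteases, were all higher in old mutants. Jon25Bii had 5659.8, 5342 and 4711 normalised counts in old mutants, against 1498, 1306 and 943 in old wild type. No library overlapped, and the log2 change was 2.09 (SE 0.35, limma adjusted p = 0.00401). Jon25Bi had 6093, 5253 and 5632 in old mutants, against 2430.5, 2051 and 1364 in old wild type. Its log2 change was 1.58 (SE 0.28, limma adjusted p = 0.00586), again without overlap. The more abundant Jon25Biii had 24032, 19382 and 18823 in old mutants, against 10550.0, 6528 and 7825 in old wild type, with replicate 1 the highest in both groups and no overlap between them. Its log2 change was 1.34 (SE 0.25, limma adjusted p = 0.00778).

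All 3 Jon99C proteases were higher as well. Jon99Ciii had 8293, 6875 and 6641 normalised counts in old mutants, against 2879.8, 2638 and 1990.0 in old wild type, a log2 change of 1.55 (SE 0.26, limma adjusted p = 0.00431). Jon99Cii had 9466, 8236 and 7636 in old mutants, against 3416, 3189.9 and 2303 in old wild type, a log2 change of 1.52 (SE 0.26, limma adjusted p = 0.00453). The genes are close neighbours on 3R, and the ratio of Jon99Cii to Jon99Ciii stayed between 1.14 and 1.25 over the 12 libraries. Jon99Ci had 6191, 5124 and 5848 in old mutants, against 2979, 2470.4 and 1529 in old wild type, a log2 change of 1.35 (SE 0.26, limma adjusted p = 0.00901). For none of the 3 did a wild type library reach the lowest mutant library. By contrast, the pair at 99F was not called: Jon99Fi had a log2 change of 0.47 (SE 0.30, limma adjusted p = 0.514) and Jon99Fii 0.31 (SE 0.28, limma adjusted p = 0.71), with levels of 3830.2 to 4544 and 5540.0 to 6845 in old mutants against 1980.0 to 3788 and 3354 to 6432 in old wild type. For Jon99Fii, wild type replicate 1 lay within the mutant range.

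The 65A cluster divided by abundance. Its lesser members Jon65Ai and Jon65Aii were called, and its 3 abundant members were not. Jon65Ai had 2506, 2311 and 1935 normalised counts in old mutants, against 1063, 772 and 751 in old wild type, and the log2 change was 1.39 (SE 0.35, limma adjusted p = 0.0365). Jon65Aii had 2112, 1587 and 1742 in old mutants, against 1019, 893 and 709.7 in old wild type, and the log2 change was 1.06 (SE 0.26, limma adjusted p = 0.0366). Neither gene overlapped between groups, but both calls were lost in edgeR and when any old library was left out. Jon65Aiv, the most abundant of all, had 54195, 45948 and 40207 in old mutants, against 39497, 29341 and 37624 in old wild type. The mutant libraries were the higher ones, and the log2 change of 0.40 (SE 0.23, limma adjusted p = 0.448) was not called. Jon65Aiii had 41333, 35706 and 31817 in old mutants and 30412, 22877 and 29277 in old wild type, with a log2 change of 0.40 (SE 0.22, limma adjusted p = 0.413). For yip7, a chymotrypsin-like protease first found as a partner of the protein Yippee, the counts were 30958, 25735 and 22174 in old mutants and 21025, 15126 and 20687 in old wild type, with a log2 change of 0.48 (SE 0.23, limma adjusted p = 0.344). The ratio of Jon65Aiv to Jon65Aiii was 1.24 to 1.39 in every library.

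Of the Jonah genes outside these clusters, Jon74E was called. It had 5597, 4992 and 4984 normalised counts in old mutants, against 3149, 2411 and 2949 in old wild type, without overlap and with a log2 change of 0.88 (SE 0.16, limma adjusted p = 0.00674). Jon44E had 458, 301 and 273 in old mutants and 185, 139 and 120.5 in old wild type, also without overlap, but missed the threshold with a log2 change of 1.19 (SE 0.36, limma adjusted p = 0.0799). Jon66Ci and Jon66Cii were not called, at 0.97 (SE 0.34, limma adjusted p = 0.143) and 0.80 (SE 0.46, limma adjusted p = 0.451). Their old libraries overlapped between genotypes.

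Within the trypsin cluster, neighbours differed in direction. Trypsin gene epsilonTry had 4634, 4555 and 3769 normalised counts in old mutants, against 1662, 1442 and 1423 in old wild type. The replicates were close to one another in both groups, and the log2 change was 1.51 (SE 0.19, limma adjusted p = 0.00061). Its neighbour betaTry had 43492, 41743 and 36755 in old mutants, against 24538, 20595 and 22567 in old wild type, a log2 change of 0.85 (SE 0.14, limma adjusted p = 0.00432). On its other side, alphaTry had 38976, 36582 and 32359 in old mutants and 29196, 23221 and 28353 in old wild type. These groups did not overlap either, but the log2 change of 0.42 (SE 0.15, limma adjusted p = 0.163) did not pass. The ratio of betaTry to alphaTry was 1.12 to 1.14 in old mutants, against 0.796 to 0.887 in old wild type.

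Next to them, etaTry was lower in mutants while the genes on both sides of it were higher. Counts of etaTry were 403, 375 and 271 in old mutants, against 705, 509 and 779.9 in old wild type, a log2 change of -0.92 (SE 0.18, limma adjusted p = 0.0106). Those of zetaTry were 364, 311 and 254 in old mutants, against 215, 147 and 173 in old wild type, a log2 change of 0.79 (SE 0.18, limma adjusted p = 0.0218). Those of thetaTry were 3431, 3013 and 2355 in old mutants, against 1883, 1373 and 1550.5 in old wild type, a log2 change of 0.87 (SE 0.21, limma adjusted p = 0.0315). None of these 3 trypsins overlapped between groups. The ratio of zetaTry to etaTry was 0.830 to 0.935 in old mutants and 0.222 to 0.305 in old wild type. The ends of the cluster were not called: kappaTry, with 921, 852 and 709 in old mutants and 1320.4, 856 and 1133 in old wild type, had a log2 change of -0.40, lambdaTry -0.07 and iotaTry -0.20, with adjusted p of 0.23, 0.96 and 0.725 in limma. Try29F, a trypsin gene on 2L at low level, had a log2 change of 1.08 (SE 0.34, limma adjusted p = 0.102).

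Ser8 and Ser12, scarce serine proteases outside the clusters, were lower in old mutants. Ser8 had 221, 153 and 228 normalised counts in old mutants, against 693, 439 and 495 in old wild type, a log2 change of -1.43 (SE 0.20, limma adjusted p = 0.00128). Ser12 had 299, 160.4 and 142 in old mutants, against 483, 405 and 522 in old wild type, a log2 change of -1.30 (SE 0.31, limma adjusted p = 0.0287). Groups did not overlap for either gene, although mutant replicate 1 of Ser12 was well above the other 2 mutant libraries. Ser6 had 111 to 146 in old mutants and 132 to 195 in old wild type and was not called, at -0.45 (SE 0.18, limma adjusted p = 0.23).

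**Figure D3:**
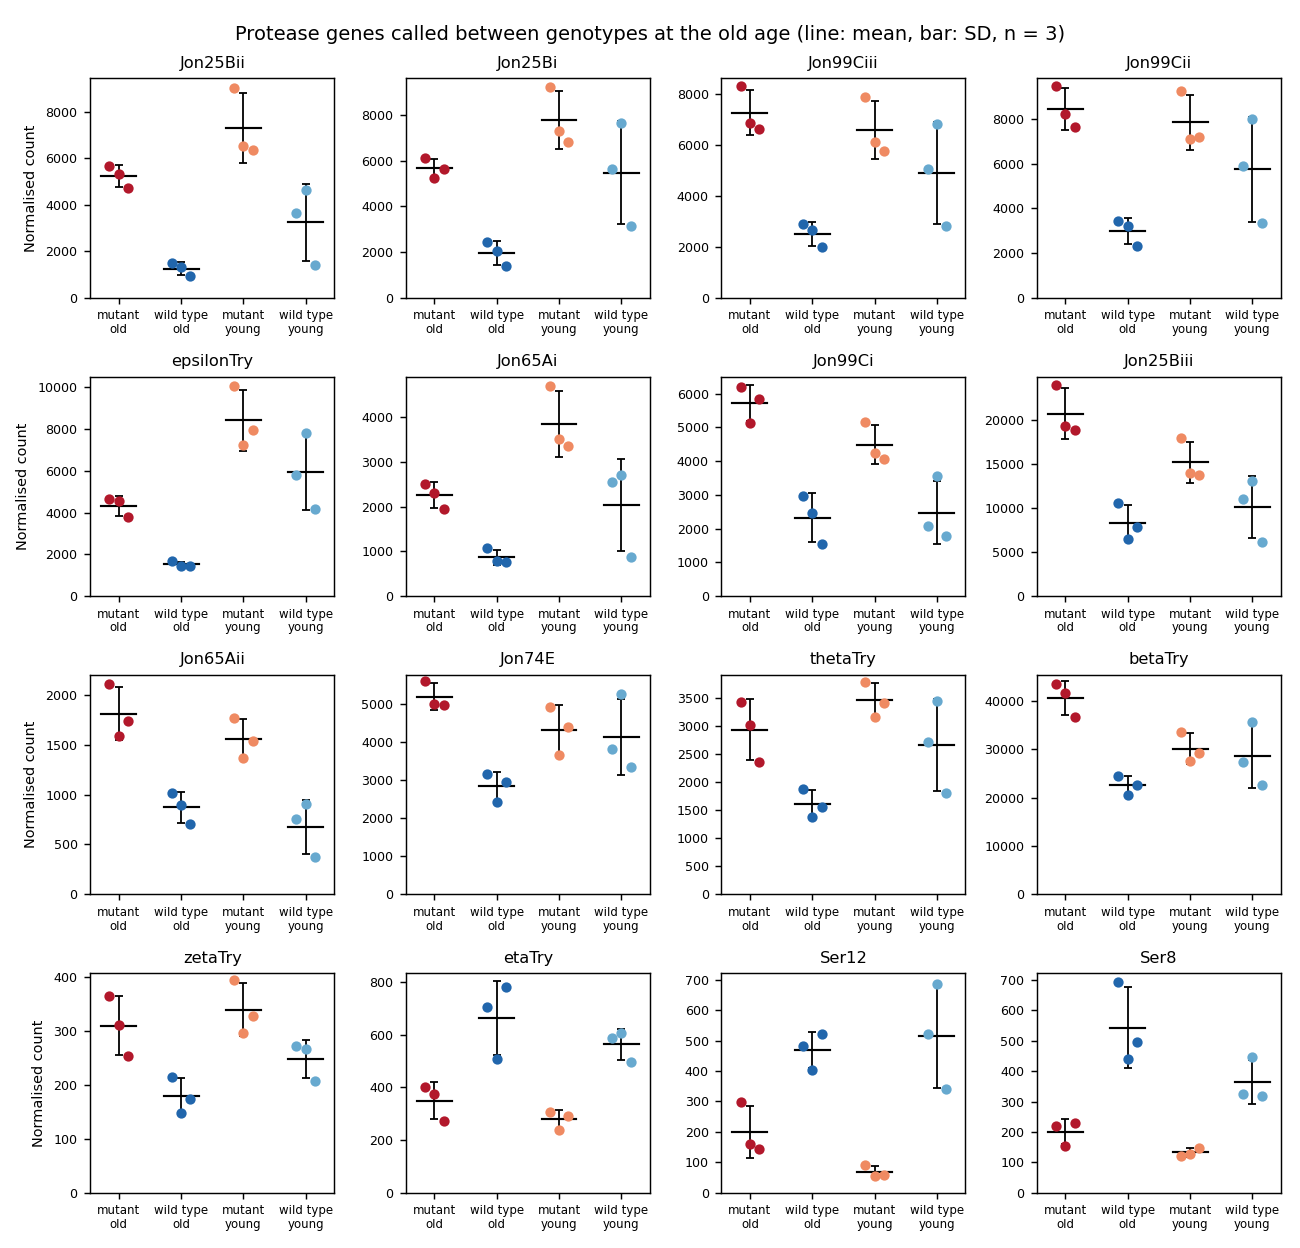
Normalised counts of the 16 protease genes called between old mutants and old wild type, 1 point per library, with the mean as a line and the SD as a bar (n = 3). For 13 genes the old mutant points lie above all old wild type points, and for etaTry, Ser12 and Ser8 they lie below.

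The old comparison held no library with male transcripts. Leaving the 3 young libraries out of the shared estimate of spread gave 15 called genes, 13 higher and 2 lower, against 4.53% of all genes: zetaTry and etaTry no longer passed (adjusted p of 0.0533 and 0.0552 in limma), and Jon44E did (adjusted p = 0.0349). With the low-value filter run on the other 9 libraries, 18 were called, against 6.17% of all genes. Without wild type old replicate 3, 10 genes were called, a count given here without the share over all genes. Jon25Bi, Jon25Bii, Jon25Biii, Jon74E, Jon99Cii, Jon99Ciii, Ser8, betaTry and epsilonTry kept the call under each of the 25 alternatives run. The other old calls were less firm. Jon99Ci kept its call under 24, etaTry under 21, Ser12 and zetaTry under 19 each, thetaTry under 17, and Jon65Ai and Jon65Aii under 15 each.

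In young flies, 8 of 30 protease genes were called, 3 higher and 5 lower in mutants, against 4.81% of all genes (1.03% higher and 3.78% lower). The median log2 change was 0.03, beside -0.02 over all genes. Groups did not overlap for 13 of the 30, beside 25.3% of all genes, and for 29 of the 30 without the 3 libraries, beside 67.4% of all genes. The genes that were called at both ages were Jon25Bii, Jon65Aii and Jon99Ci, higher in mutants, and Ser8, Ser12 and etaTry, lower in mutants. The old and the young comparison have no library in common, but both use the shared estimate of spread, so their calls are not independent. The young calls of Jon25Bii, Jon66Cii and Jon99Ci were lost when any old mutant library was left out. The young calls were not equally firm: of the 25 alternatives run, Ser12 kept its call under 24, Jon65Aii, Ser8 and etaTry under 23 each, kappaTry under 18, Jon25Bii under 13, Jon66Cii under 11 and Jon99Ci under 8.

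Jon25Bii had 9038, 6528 and 6343 normalised counts in young mutants, against 3665, 4639.6 and 1408 in young wild type, and the log2 change was 1.32 (SE 0.35, limma adjusted p = 0.0386). Jon65Aii had 1772, 1366 and 1534 in young mutants, against 752, 904 and 376 in young wild type, and the log2 change was 1.28 (SE 0.26, limma adjusted p = 0.0131). Jon99Ci had 5151, 4251 and 4072 in young mutants, against 2076, 3545 and 1789 in young wild type, and the log2 change was 0.92 (SE 0.26, limma adjusted p = 0.0481). For all 3 the genotypes did not overlap, although wild type replicate 3 was the lowest and spread that group widely. Jon99Ci lost its call under TMM scaling, quantile normalisation, a pseudocount of 10, edgeR and the replicate block, among others.

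Lower genes in young mutants were led by Ser12, with 91.8, 54.5 and 58.9 normalised counts in young mutants, against 521, 687 and 342 in young wild type. Its log2 change was -2.88 (SE 0.31, limma adjusted p = 0.000169). Ser8 had 122, 126 and 148 in young mutants, against 325, 447 and 318 in young wild type, a log2 change of -1.44 (SE 0.20, limma adjusted p = 0.00114). The trypsin etaTry had 306, 237 and 293 in young mutants, against 587, 609 and 495 in young wild type, a log2 change of -1.02 (SE 0.18, limma adjusted p = 0.00613). Every mutant value of these 3 genes lay under every wild type value. In the same cluster, kappaTry had 753, 580.5 and 646 in young mutants, against 1114, 1171 and 901 in young wild type, a log2 change of -0.68 (SE 0.16, limma adjusted p = 0.0273). Jon66Cii had 55.7, 39.6 and 20.3 in young mutants, against 112, 114 and 137 in young wild type, a log2 change of -1.73 (SE 0.46, limma adjusted p = 0.0401). Both were without overlap between genotypes, at lower counts for Jon66Cii than for any other Jonah gene.

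Several genes that were called at the old age were not called in young flies. Young levels of epsilonTry were 10078, 7248 and 7969 in mutants and 5809.9, 7806 and 4171 in wild type, with a log2 change of 0.54 (SE 0.19, limma adjusted p = 0.0874). Jon99Ciii had 7881, 6112 and 5743 in young mutants and 5039, 6799 and 2819.5 in young wild type, with a log2 change of 0.51 (SE 0.26, limma adjusted p = 0.195). Both pairs of groups overlapped. The other Jonah genes of this kind were as follows. Jon25Bi had 9206, 7278 and 6808 in young mutants and 5651, 7627 and 3120.2 in young wild type, at 0.59 (SE 0.28, limma adjusted p = 0.169). Jon25Biii had 17912, 13963 and 13749 in young mutants and 11026, 13124 and 6158 in young wild type, at 0.65 (SE 0.25, limma adjusted p = 0.104). Wild type replicate 3 was the lowest library for both, and only Jon25Biii was without overlap. Jon65Ai had 4704, 3503 and 3361 in young mutants and 2546, 2704 and 862 in young wild type, at 1.07 (SE 0.35, limma adjusted p = 0.0708). Jon74E had 4929.6, 3659 and 4389 in young mutants and 3816, 5251 and 3346 in young wild type, at 0.08 (SE 0.16, limma adjusted p = 0.721). Jon99Cii had 9281, 7099 and 7205 in young mutants and 5888, 8009 and 3332 in young wild type, at 0.53 (SE 0.26, limma adjusted p = 0.176). Of these 3, Jon65Ai alone did not overlap between genotypes. Among the trypsins, zetaTry had 394, 296 and 328 in young mutants and 271, 266 and 206 in young wild type, at 0.45 (SE 0.18, limma adjusted p = 0.107), and thetaTry had 3784, 3168 and 3417 in young mutants and 2712, 3450.4 and 1806 in young wild type, at 0.43 (SE 0.21, limma adjusted p = 0.178). The zetaTry groups were apart and those of thetaTry overlapped.

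The 5 most abundant genes had young log2 changes of -0.29 (Jon65Aiv), -0.20 (Jon65Aiii), -0.06 (alphaTry), 0.09 (betaTry) and -0.30 (yip7), none of them called. Jon65Aiv had 50095, 37458 and 35807 in young mutants, against 51800.0, 69173 and 34060.3 in young wild type. Jon65Aiii had 37766, 28509 and 28854 in young mutants and 37705, 49675 and 24883 in young wild type, and yip7 had 28772, 20993 and 22868 in young mutants and 31944, 40073 and 19954 in young wild type. Counts of alphaTry were 33061, 26045 and 29375 in young mutants and 30844, 38445 and 24384 in young wild type, and those of betaTry were 33653, 27487 and 29183 in young mutants and 27446, 35672 and 22701 in young wild type. Wild type replicate 2 was the highest library of its group for all 5, and the genotypes overlapped.

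**Figure D4:**
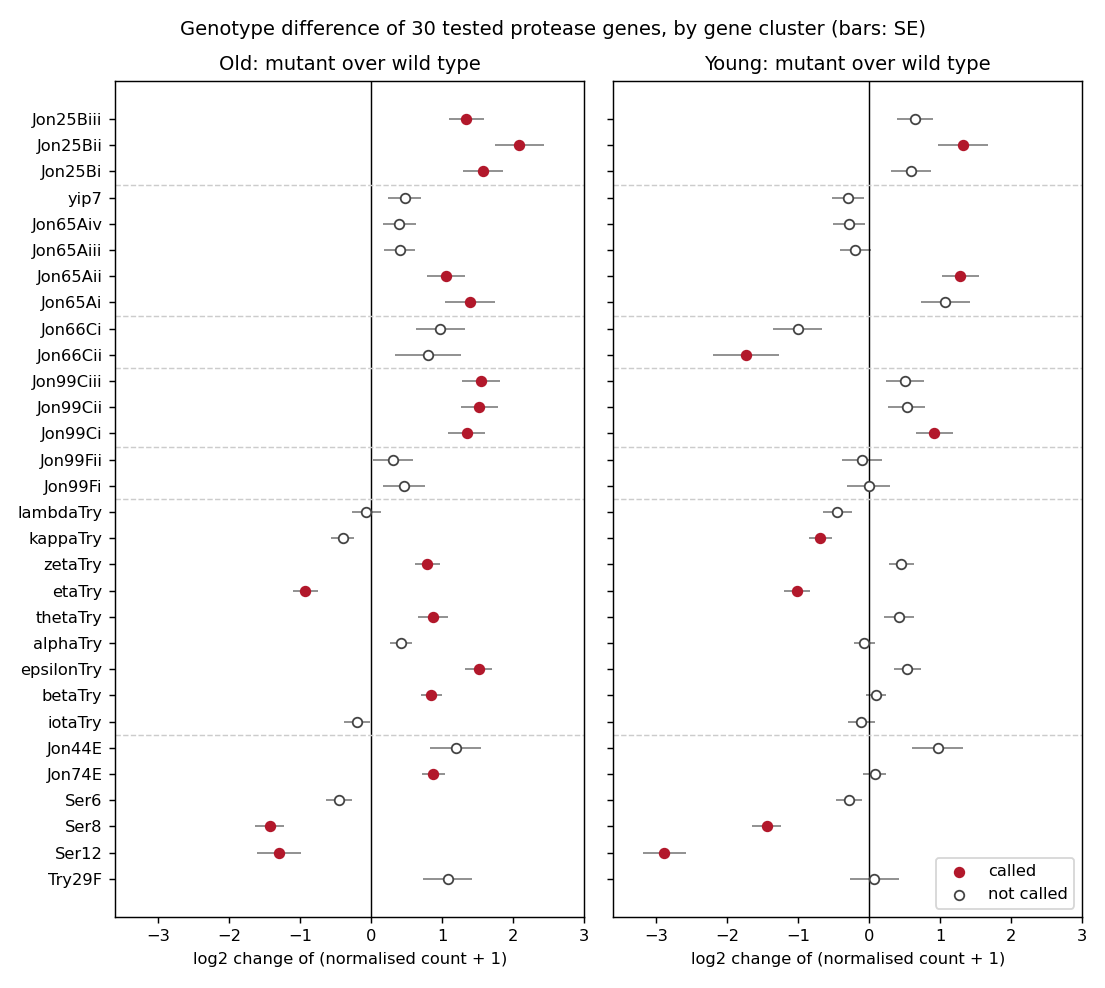
Log2 change of mutant over wild type for the 30 tested protease genes, with SE bars, at the old age (left) and the young age (right). Genes are grouped by cluster in genome order and the solitary genes come last, and filled points are called: 16 at the old age and 8 at the young age.

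The young comparison rested on libraries that stand apart. For 27 of 30 genes wild type young replicate 3, the library without male transcripts, was the lowest of its group, and the 2 wild type libraries with male transcripts exceeded it by a median log2 difference of 0.73, positive in 28 of 30 genes. Shifts of most genes together were not confined to this group. Replicate 1 was the highest library for 28 of 30 genes in old mutants and 26 in old wild type, groups without male transcripts. In young mutants replicate 1, with male transcripts, was the highest for 28. The 30 genes thus moved together by library, and counts over them are not counts of independent genes. Among libraries with male transcripts, the median log2 difference of mutant over wild type was -0.09 (14 genes positive, 16 negative). Among those without, it was 0.29 (21 positive, 9 negative). When the 3 libraries were left out, wild type young had 1 library, assumed to vary like the other groups. Then 3 of the same 30 genes were called, all higher in mutants, against 1.01% of all genes: Jon25Bii at 2.19 (SE 0.25, adjusted p = 0.0183), Jon65Ai at 1.99 (SE 0.23, adjusted p = 0.0188) and Jon65Aii at 1.94 (SE 0.24, adjusted p = 0.02). Jon99Ci was not called, at 1.22 (SE 0.35, adjusted p = 0.251). The changes of the lower genes kept their sign but did not pass, at -2.57 (SE 0.42, adjusted p = 0.0506) for Ser12, -1.21 (SE 0.33, adjusted p = 0.228) for Ser8 and -0.91 (SE 0.32, adjusted p = 0.373) for etaTry. Likewise Jon66Cii stood at -2.23 (SE 0.80, adjusted p = 0.376) and kappaTry at -0.56 (SE 0.26, adjusted p = 0.521). With the low-value filter run on the other 9 libraries, 10 protease genes were called, 9 higher and 1 lower, against 2.02% of all genes: Jon25Bi, Jon25Bii, Jon25Biii, Jon44E, Jon65Ai, Jon65Aii, Jon99Cii, Jon99Ciii and epsilonTry were higher and Ser12 was lower. Leaving out 1 library at a time gave 3 calls without mutant young replicate 3 and 4 without mutant young replicate 2 or wild type young replicate 1. It gave 5 calls without old mutant replicate 1, 2 or 3. Any other library left out gave from 6 calls (mutant young replicate 1) to 10 (wild type young replicate 3). These leave-one-out counts are given here without the share over all genes. The part of male RNA in these values was not tested.

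Between ages, 2 protease genes fell in old wild type flies. They were 2 of 30 tested, against 3.05% of all genes (0.886% higher and 2.17% lower), and the median log2 change was -0.49, beside 0.03 over all genes. The trypsin epsilonTry had 1662, 1442 and 1423 normalised counts in old wild type, against 5809.9, 7806 and 4171 in young wild type. No library overlapped, and the log2 change was -1.93 (SE 0.19, limma adjusted p = 8.27e-05). Jon25Bi had 2430.5, 2051 and 1364 in old wild type, against 5651, 7627 and 3120.2 in young wild type, a log2 change of -1.44 (SE 0.28, limma adjusted p = 0.00784). Groups did not overlap for 6 of the 30 genes, beside 22.3% of all genes, and for 13 without the 3 libraries, beside 55.9%. The wild type age comparison uses young libraries with male transcripts, and without the 3 libraries the median was 0.02 and the called genes were epsilonTry, at -1.47 (SE 0.14, adjusted p = 0.00786), and Jon65Aii, higher in old flies at 1.2 (SE 0.22, adjusted p = 0.0447). These 2 genes, called again with the low-value filter run on the other 9 libraries, compare with 2.04% of all genes under the first filter and 2.86% under the second. Jon25Bi stood at -0.72 (SE 0.28, adjusted p = 0.265). Without wild type young replicate 3, 7 genes were called, a count given here without the share over all genes.

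In mutants, 1 of 30 genes was called between ages, against 1.81% of all genes (0.789% higher and 1.02% lower), and the median log2 change was 0.20, beside -0.02 over all genes. That gene was Ser12, with 299, 160.4 and 142 normalised counts in old mutants, against 91.8, 54.5 and 58.9 in young mutants. The groups did not overlap, and the log2 change was 1.5 (SE 0.31, limma adjusted p = 0.0128). Ser12 kept the call without the 3 libraries, at 1.72 (SE 0.31, adjusted p = 0.0286), where 2.17% of all genes were called, or 2.77% with the low-value filter run on the other 9. It lost the call without mutant old replicate 1, mutant young replicate 2 or mutant young replicate 3. In the first 2 cases epsilonTry was called in its place, and in the last no protease gene was called, with 5 at an unadjusted p under 0.05 in limma. Without wild type old replicate 2, which changes only the shared spread, Jon66Ci was called beside it. The trypsin epsilonTry had 4634, 4555 and 3769 in old mutants, against 10078, 7248 and 7969 in young mutants, a log2 change of -0.96 (SE 0.19, limma adjusted p = 0.0116) that passed the adjusted p but not the fold. Groups did not overlap for 11 of the 30 genes, beside 24.7% of all genes, and for 21 without the 3 libraries, beside 38.4%. Set against alphaTry, epsilonTry stood at a ratio of 0.116 to 0.125 in old mutants and 0.0502 to 0.0621 in old wild type, and of 0.271 to 0.305 in young mutants and 0.171 to 0.203 in young wild type, so the 4 groups were separate.

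The difference between the age changes of the 2 genotypes, mutant minus wild type, was not called for any of the 30 genes, against 0.158% of all genes (0.14% higher and 0.0175% lower). It was positive for 27 of them, with a median of 0.54 on the log2 scale beside -0.01 over all genes, and 11 genes had an unadjusted p under 0.05 in limma. The lowest adjusted p was 0.23, for Jon66Ci, at 1.98 (SE 0.49, limma adjusted p = 0.23). Jon66Ci had 1057, 619.8 and 915 normalised counts in old mutants and 534, 412 and 273 in young mutants, against 689, 246 and 463 in old wild type and 702, 944 and 739 in young wild type. Its neighbour Jon66Cii ran in the same directions, with 90.3, 52.8 and 84.8 in old mutants and 55.7, 39.6 and 20.3 in young mutants, against 89.6, 21.9 and 37.1 in old wild type and 112, 114 and 137 in young wild type, and its difference was 2.53 (SE 0.65, limma adjusted p = 0.251). For betaTry the difference was 0.76 (SE 0.20, limma adjusted p = 0.285). With the 3 libraries left out, no difference was called in limma (7 at an unadjusted p under 0.05), against 0.0526% of all genes, or 0.0097% with the low-value filter run on the other 9, 20 of 30 were positive and the median was 0.20. The edgeR quasi-likelihood test called 0 genes (12 at an unadjusted p under 0.05) and DESeq2 called 3, Ser12, betaTry and epsilonTry, against 1.1% of all genes. Without wild type young replicate 3, 8 were called, against 1.61% of all genes, and limma with library weights called 17, against 26.7% of all genes. Each of these calls was positive. Whether the effect of genotype differed between ages thus depended on the setting, and no protease gene passed with all libraries at equal weight in limma or edgeR.

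Other digestive enzymes were compared as a list of 15 carbohydrase and lipase genes. In old mutants 3 were called higher and none lower, beside 1.46% and 2.71% of all genes. The median log2 change was 0.10, with 8 genes positive and 7 negative. Among the 7 negative genes, Amy-d stood at -0.75 and Amyrel at -0.95, neither of them called. Amy-p, an amylase that breaks down starch, had a log2 change of 1.43 (adjusted p = 0.0014), the lipase gene mag 1.01 (adjusted p = 0.00128) and the maltase gene Mal-A3 0.60 (adjusted p = 0.0201). In young mutants 3 maltases were higher, Mal-B1 at 0.99 (adjusted p = 0.0355), Mal-A7 at 0.95 (adjusted p = 0.0105) and Mal-A8 at 0.59 (adjusted p = 0.0394), while the amylase Amy-d was lower at -1.42 (adjusted p = 0.00763). Of all genes, 1.03% were higher and 3.78% lower at that age. Without the 3 libraries with male transcripts, 3 were called at the old age, against 4.53% of all genes. At the young age that setting left 1 wild type library. The young log2 changes were then -1.25 for Amy-d (adjusted p = 0.33), 0.76 for Mal-B1 (adjusted p = 0.112), 0.52 for Mal-A7 (adjusted p = 0.0221, under 1.5-fold) and 0.26 for Mal-A8 (adjusted p = 0.136).

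The median log2 changes over 13 tested genes of enterocytes and the gut epithelium were -0.69 in old and -0.75 in young flies. At each age 8 of the 13 were called lower in mutants, beside 2.71% of all genes in old and 3.78% in young flies. They included mesh, Ssk and Tsp2A, the proteins of the smooth septate junctions that seal the midgut, the enterocyte transcription factor nub and the sterol transporter Npc1b. The log2 changes of mesh were -1.19 (adjusted p = 0.000452) in old and -1.44 (adjusted p = 0.000113) in young flies, and those of nub -1.27 (adjusted p = 0.000602) and -1.62 (adjusted p = 0.000113). The whole list summed to 13331 to 14209 normalised counts in old mutants, against 19437 to 27365 in old wild type, and to 10219 to 12495 in young mutants, against 18438 to 23849 in young wild type. At both ages the genotypes did not overlap. Without the 3 libraries 6 of the 13 were called lower at the old age, where 4.53% of all genes were called in either direction. At the young age that setting left 1 wild type library, and only the median is given, at -0.67. The part of this list in the protease values was not tested.

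Progenitor markers Sox21a and esg, among 5 tested, were called lower in mutants, beside 2.71% of all genes in old and 3.78% in young flies. The log2 changes of Sox21a were -2.09 (limma adjusted p = 0.0002) in old and -3.13 (limma adjusted p = 1.17e-05) in young flies. Those of esg were -1.27 (limma adjusted p = 0.0039) and -1.31 (limma adjusted p = 0.00313). Without the 3 libraries both were called at the old age and Sox21a alone at the young age. The progenitor list summed to 2939 to 3323 in old mutants against 3367 to 3699 in old wild type, without overlap, and to 2996 to 3425 in young mutants against 3005 to 3452 in young wild type, with overlap. Dl, which encodes the Notch ligand Delta, supplied most of each sum and was not called, at 0.04 in old and 0.13 in young flies. None of 10 enteroendocrine or 10 ovary and germline genes was called between old genotypes in limma, edgeR or DESeq2 (2, 1 and 2 enteroendocrine and 0 ovary genes at an unadjusted p under 0.05), and none in young flies (2, 2 and 2 enteroendocrine and 7, 5 and 7 ovary genes). Without the 3 libraries the peptide hormone gene CCHa2 was called in young flies, at 0.64 (adjusted p = 0.0255). The enteroendocrine genes had a median log2 change of 0.06 at the old age, with sums of 3495 to 3685 in old mutants and 3121 to 3875 in old wild type, and the ovary and germline genes a median of 0.08, with sums of 58714 to 62381 in old mutants and 56482 to 61647 in old wild type. Of 13 regulators of gut identity and enzyme expression, none was called at the old age in limma, edgeR or DESeq2, with 2 at an unadjusted p under 0.05 in each. In young mutants 3 were lower, beside 3.78% of all genes. They were lab at -0.89 (limma adjusted p = 0.0325), the GATA factor GATAe at -0.81 (adjusted p = 0.0128) and Ptx1 at -0.60 (adjusted p = 0.013). The young median over the 13 genes was -0.13, and -0.05 without the libraries with male transcripts, where 1 young wild type library was left. Of 5 tested lysozyme genes, LysX was called lower in mutants, beside 2.71% of all genes in old and 3.78% in young flies. Its log2 change was -2.99 (limma adjusted p = 7.37e-05) in old and -3.56 (limma adjusted p = 2.18e-05) in young flies. Without the 3 libraries LysX kept the old call, and its young change was -3.59. LysP was called higher in young mutants, at 0.73 (limma adjusted p = 0.0218), beside 1.03% of all genes. Without the 3 libraries its change was larger, at 0.95, and did not pass (adjusted p = 0.2).

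**Figure D5:**
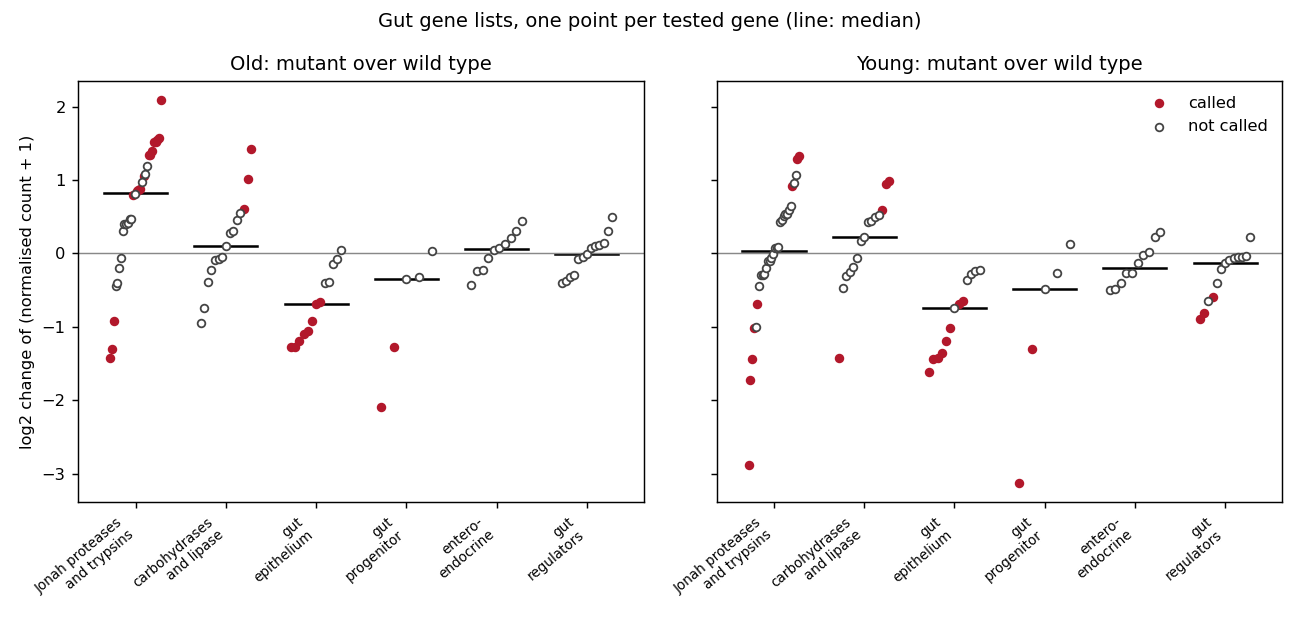
Log2 change of mutant over wild type for each tested gene of the proteases and 5 other gut lists, at the old age (left) and the young age (right), with a line at each list's median and filled points for called genes. At the old age the protease median is 0.83 and that of the gut epithelium list -0.69.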

How the data were processed

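Poly(A) RNA of whole female flies was sequenced by the authors, and the labels give a pair of preparation methods without saying which library had which. Per the labels, reads were aligned with STAR 2.7.3a to BDGP6, counted by HTSeq 0.11.2 and scaled by DESeq2 1.20.0. The signal deposited by the authors is therefore each gene's read count over the size factor of its library. In each library 100% of values were whole multiples of 1 step within 0.01 (steps 0.798 to 1.32), so whole reads were recovered. The strand setting and the treatment of reads that fit several genes are not given in the sources used here, which leaves overlapping, antisense and near-identical genes uncertain. The labels name genotypes and ages otherwise than the paper, and groups, ages and flies per library follow the labels and the design text. That text speaks of biological replicates without mentioning separate cultures, and p-values then cover only the spread between these libraries.

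Genes with at least 10 normalised counts in at least 3 of 12 libraries were tested (11403 of 17714). The log2 of each value plus a pseudocount of 1, a scale that understates changes of low genes, was fitted in limma 3.58.1 (R 4.3.3, trended eBayes, two-sided) as 4 groups in 1 model with Benjamini-Hochberg adjustment. Genes were called below an adjusted p of 0.05 with more than 1.5-fold (genotype) or 2-fold (age) change, and for the interaction by adjusted p alone. The code was tested on simulated data. The alternatives concerned the scaling, the pseudocount, the low-value filter, the tool (edgeR 4.0.16 and DESeq2 1.42.0 on recovered reads), the groups in the fit, library weights, the replicate block and the libraries. All 32 symbols were located in a later annotation of that assembly. Members, lists and tests were chosen with earlier results of these data known. Genotype comparisons give the value in every library for members called in any comparison and for the 5 with the highest mean. Values of Jon44E and Jon66Ci were added after their values were seen. Promoter and protein sequences were not analysed here.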

Additional observations from a re-analysis of the deposited data

How the results depend on the processing

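The old genotype comparison called 16 protease genes and between 11 and 18 under the other settings, and single libraries left out gave 10 (without wild type old replicate 3) to 17. The young comparison called 8, and 5 with no filter on low values, 5 with edgeR, 3 with only the 2 groups compared and 3 without the 3 libraries with male transcripts, or 10 with the low-value filter run on the other 9, both alternatives chosen after seeing the data. Single libraries left out gave 3 (without mutant young replicate 3) to 10. The wild type age comparison called 2, and 5 with DESeq2, 4 with library weights and 1 with only the 2 groups compared, with 2 to 7 (without wild type young replicate 3) on leaving out single libraries. The mutant age comparison called 1, and 2 with library weights or only the 2 groups compared, with 0 to 2 on leaving out single libraries. The interaction called 0, and 3 with DESeq2 and 17 with library weights, with 0 to 8 (without wild type young replicate 3) on leaving out single libraries. These counts stand without the share of all genes called, which also changed with the setting. For the interaction it was 0.158% in the main fit and 26.7% with library weights. A change in these counts is therefore not by itself a result about the proteases. The cause of these shifts was not tested, except that fewer libraries entered the fits that left some out. The median young log2 change of the 30 genes was 0.03 and turned to -0.01 under TMM scaling. No single protease gene that was called changed sign under any alternative. Replicate numbers were not used to pair the samples in the main fit. In deviations from the group means, same-numbered libraries of the 2 genotypes correlated at 0.103, -0.0246 and -0.0624 at the old age. At the young age they correlated at 0.825, -0.87 and 0.879. The young values cannot test pairing: male transcripts were in both replicate 1 libraries, neither replicate 3 library and 1 of the replicate 2 libraries. With the replicate block the counts were 18, 10, 3, 1 and 0 for the old, young, wild type age, mutant age and interaction comparisons. Trypsin genes gammaTry and deltaTry had too few counted reads to test, and why was not tested. Only 1 young wild type library was free of male transcripts.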
